A study of Mus musculus with 15 samples.

Results

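Cortical interneurons are specified by a small set of transcription factors, and 9 genes of that set were followed in the medial prefrontal cortex of mice that model the human 15q13 microdeletion. They are the homeobox genes Dlx1, Dlx2, Dlx5 and Dlx6, the antisense transcript Dlx6os1, the LIM homeobox gene Lhx6, and Maf, Sox6 and Prox1. The genes were listed by name as lineage regulators of interneurons from the medial and caudal ganglionic eminences. All 9 were found among the 54838 rows of the expression table, and all 9 reached a mean of 1 TPM (transcript abundance scaled by length and by library total), as did 18671 rows in all. Total RNA was taken by micropunch from this region in C57BL/6 males, 8 to 10 weeks old. The WT group held 7 libraries of wild-type littermates. The KO group held 8 libraries of Df(h15q13)/+ mice, which are heterozygous for a germline deletion on chromosome 7, so every cell type lacks 1 copy of the segment. Group sizes follow the sample titles, and the series' design text gives 7 deletion and 8 wild-type animals instead. The labels do not identify animals, so p-values measure the spread between libraries.

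Interneurons of the cerebral cortex are born outside it, in the ganglionic eminences of the ventral forebrain, and migrate into the cortex. Dlx proteins act in nearly all of these precursors and promote GABAergic differentiation and migration. In the medial eminence, the source of parvalbumin and somatostatin interneurons, Lhx6 acts with Sox6 and Maf to set fate and maturation, while Prox1 marks interneurons of the caudal eminence, the source of VIP and many neurogliaform cells. Several of these genes are used by other cells of the brain as well: Sox6 by oligodendrocyte precursors, Prox1 in the oligodendrocyte lineage, Maf by macrophages, and Dlx genes by striatal neurons.

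The Dlx genes sit in convergent pairs in the mouse genome (mm10 with GENCODE M21 gene models). Dlx1 (ENSMUSG00000041911, chr2:71528113-71533981, plus strand) and Dlx2 (ENSMUSG00000023391, chr2:71543408-71546754, minus strand) are 9426 bases apart. Dlx6 (ENSMUSG00000029754, chr6:6863334-6868568, plus strand) and Dlx5 (ENSMUSG00000029755, chr6:6877805-6882085, minus strand) are 9236 bases apart. Dlx6os1 (ENSMUSG00000090063, chr6:6820189-6871592, minus strand) covers the whole 5235 bases of Dlx6 on the opposite strand. An antisense gene, Dlx1as (ENSMUSG00000084946, chr2:71516454-71537891, minus strand), likewise covers all 5869 bases of Dlx1. No strand setting is given in the sources used here, so reads of Dlx6 and Dlx6os1, and of Dlx1 and Dlx1as, cannot be told apart with certainty. Lhx6 (ENSMUSG00000026890) lies at chr2:36081953-36105408, Maf (ENSMUSG00000055435) at chr8:115682942-115707794, Prox1 (ENSMUSG00000010175) at chr1:190118035-190170714 and Sox6 (ENSMUSG00000051910) at chr7:115470872-116038796. Sox6 shares its chromosome with the deletion but starts 51.1 Mb beyond Fan1, a gene of the deleted segment.

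**Figure D1:**
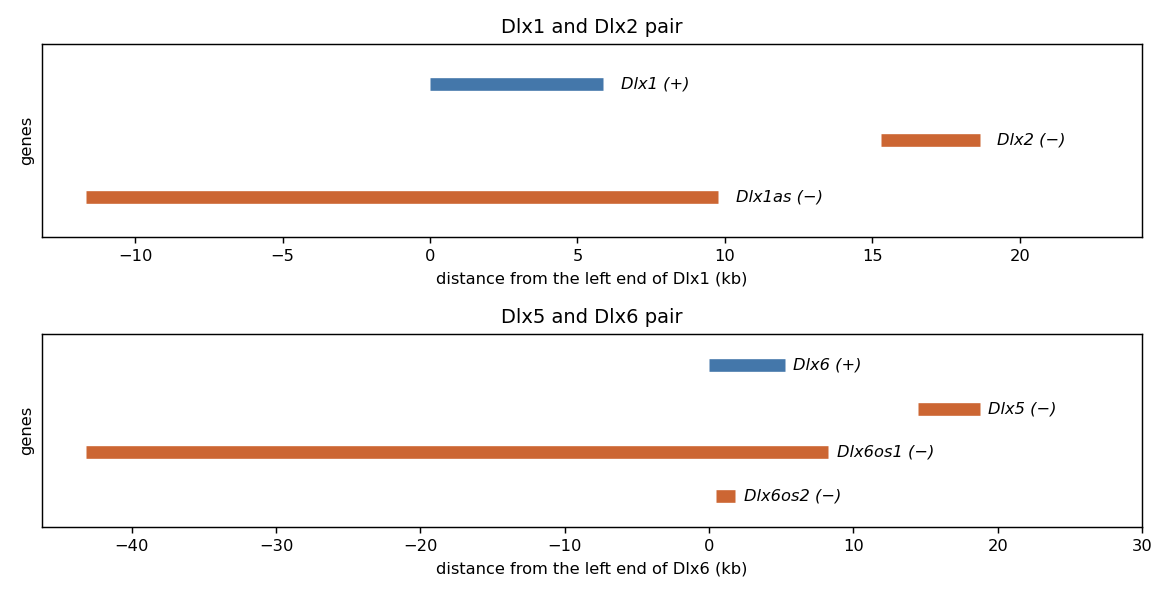
Position of the Dlx genes and of the antisense transcripts over them, as distance in kb from the left end of Dlx1 (upper map) and of Dlx6 (lower map), with plus-strand genes in blue and minus-strand genes in orange. Dlx1as covers Dlx1 and Dlx6os1 covers Dlx6, while Dlx2 and Dlx5 are free of an annotated antisense gene among those drawn.

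Promoter sequences are shown for Dlx6os1, Prox1 and Sox6, which had low KO means, and for Lhx6, whose means were nearly equal (RefSeq, GRCm38.p6; 6 of the 9 genes matched the promoter table used). Each window runs from 250 bases before to 50 bases after the annotated start nearest to the GENCODE gene start. Capitals mark matches, on either strand, to TAATTA, a core bound by many homeodomain proteins including Dlx and Lhx6, to TGCTGA, the core of the Maf recognition element, and to ACAAT, a core bound by Sox proteins.
Dlx6os1 (chr6:6869484-6869783, minus strand): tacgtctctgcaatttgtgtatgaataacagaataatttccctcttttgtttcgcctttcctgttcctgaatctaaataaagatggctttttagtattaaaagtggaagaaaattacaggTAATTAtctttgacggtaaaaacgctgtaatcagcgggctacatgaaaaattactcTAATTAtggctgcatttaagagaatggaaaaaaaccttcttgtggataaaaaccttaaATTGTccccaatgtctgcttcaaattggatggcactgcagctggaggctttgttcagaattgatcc
Prox1 (chr1:190170778-190171077, minus strand): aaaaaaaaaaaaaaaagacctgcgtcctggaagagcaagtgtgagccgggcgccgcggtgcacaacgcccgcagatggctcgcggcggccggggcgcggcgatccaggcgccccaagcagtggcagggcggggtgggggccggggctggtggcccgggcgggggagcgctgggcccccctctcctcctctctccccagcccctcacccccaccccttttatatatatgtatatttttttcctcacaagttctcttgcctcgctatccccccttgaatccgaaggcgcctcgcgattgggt
Sox6 (chr7:116038695-116038994, minus strand): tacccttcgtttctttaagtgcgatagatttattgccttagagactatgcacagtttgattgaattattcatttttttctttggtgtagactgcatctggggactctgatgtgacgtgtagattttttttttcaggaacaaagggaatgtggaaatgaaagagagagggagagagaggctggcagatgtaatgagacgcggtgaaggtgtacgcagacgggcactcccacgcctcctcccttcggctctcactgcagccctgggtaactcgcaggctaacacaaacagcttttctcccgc
Lhx6 (chr2:36105359-36105658, minus strand): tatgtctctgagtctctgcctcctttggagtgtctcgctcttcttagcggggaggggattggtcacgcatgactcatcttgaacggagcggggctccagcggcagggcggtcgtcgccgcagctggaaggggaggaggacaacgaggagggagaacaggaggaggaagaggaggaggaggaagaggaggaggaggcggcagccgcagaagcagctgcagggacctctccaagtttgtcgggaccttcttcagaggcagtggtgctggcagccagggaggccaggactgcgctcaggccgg
The Dlx6os1 window lies inside the longer GENCODE gene. It held 2 matches to TAATTA, at 130 and 74 bases before the start, and 1 match to ACAAT, read on the reverse strand at 16 bases before the start. No match overlapped another. The Prox1, Sox6 and Lhx6 windows held none of the 3 motifs. Among 32851 promoter windows of the same length, 5.29% held TAATTA, 19.5% held TGCTGA and 31.0% held ACAAT. The Dlx6os1 window was 35.7% G and C, against 64.3% for Prox1, 63.3% for Lhx6, 47.0% for Sox6 and a median of 52.7% over all windows.

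The libraries carried the deletion as labelled. Klf13, a gene of the deleted segment, fell to 34.8 ± 2.96 TPM (SD, 8 KO libraries) against 71.9 ± 8.17 TPM (SD, 7 WT libraries), without overlap (limma adjusted p = 2.06e-06). KO 1 and KO 8 stood apart from the others by oligodendrocyte genes: their scores (mean log2(TPM + 1) over 12 markers) were 5.36 and 5.83, against 3.81 to 4.65 in the other 13 libraries. Results are therefore also given without these 2 libraries. The 12 excitatory neuron markers summed to 2920 to 3210 TPM in WT and 2944 to 3270 TPM in KO, and none was at 0 in all libraries, as cortical tissue requires. Read depth cannot be recovered from TPM and is unknown here.

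All 9 genes were still expressed in the adult cortex, at low to middling levels. The highest WT mean belonged to Dlx1, at 19.5 TPM, followed by Maf at 16.1 TPM and Lhx6 at 13.6 TPM. Dlx6os1 was at 8.96 TPM, Sox6 at 8.34 TPM and Dlx6 at 6.66 TPM. Prox1 at 4.77 TPM, Dlx2 at 4.58 TPM and Dlx5 at 3.69 TPM were the lowest. The WT ranges of every pair of neighbours in this order overlapped, so adjacent ranks are not firm. Within libraries Dlx1 exceeded Maf in 12 of 15 and Maf exceeded Lhx6 in 9 of 15. Lhx6 exceeded Dlx6os1 in 14 of 15, and Dlx2 exceeded Dlx5 in 14 of 15. For scale, the GABA-synthesizing enzymes Gad1 and Gad2 summed to 232 ± 19.3 TPM in WT.

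None of the 9 genes differed between KO and WT past the test. KO was compared with WT by limma on log2(TPM + 1) over 18671 genes with Benjamini-Hochberg adjustment, and 0 of 9 had an adjusted p under 0.05, against 0.0268% of all tested genes. The 5 genes that passed all fell. The KO means of Sox6, Dlx6os1, Maf and Prox1 were at 73.7% to 84.1% of WT, those of Dlx1 and Dlx6 at 90.6% each, and those of Dlx2, Dlx5 and Lhx6 at 97.2% to 102%. The order is not firm: without KO 1 and KO 8 the log2 fold change was -0.18 for Dlx1 and -0.16 for Dlx6, both below the -0.14 of Prox1. At an unadjusted p under 0.05, 4 of the 9 were lower, where 6.21% of tested genes were, and 0 of the 9 were higher, where 5.68% were. In sign, 7 of the 9 log2 fold changes were negative, against 45.3% of all tested genes, and the median was -0.15, against 0.02 over all tested genes. That count of negative signs rests on genes near 0: it was 6 without WT 3, 8 without KO 1 and KO 8, and 9 without WT 1 or without KO 4. The groups overlapped for each of the 9 genes, as they did for all but 0.134% of tested genes. In bulk tissue, fewer cells of a type and less RNA per cell cannot be told apart.

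**Figure D2:**
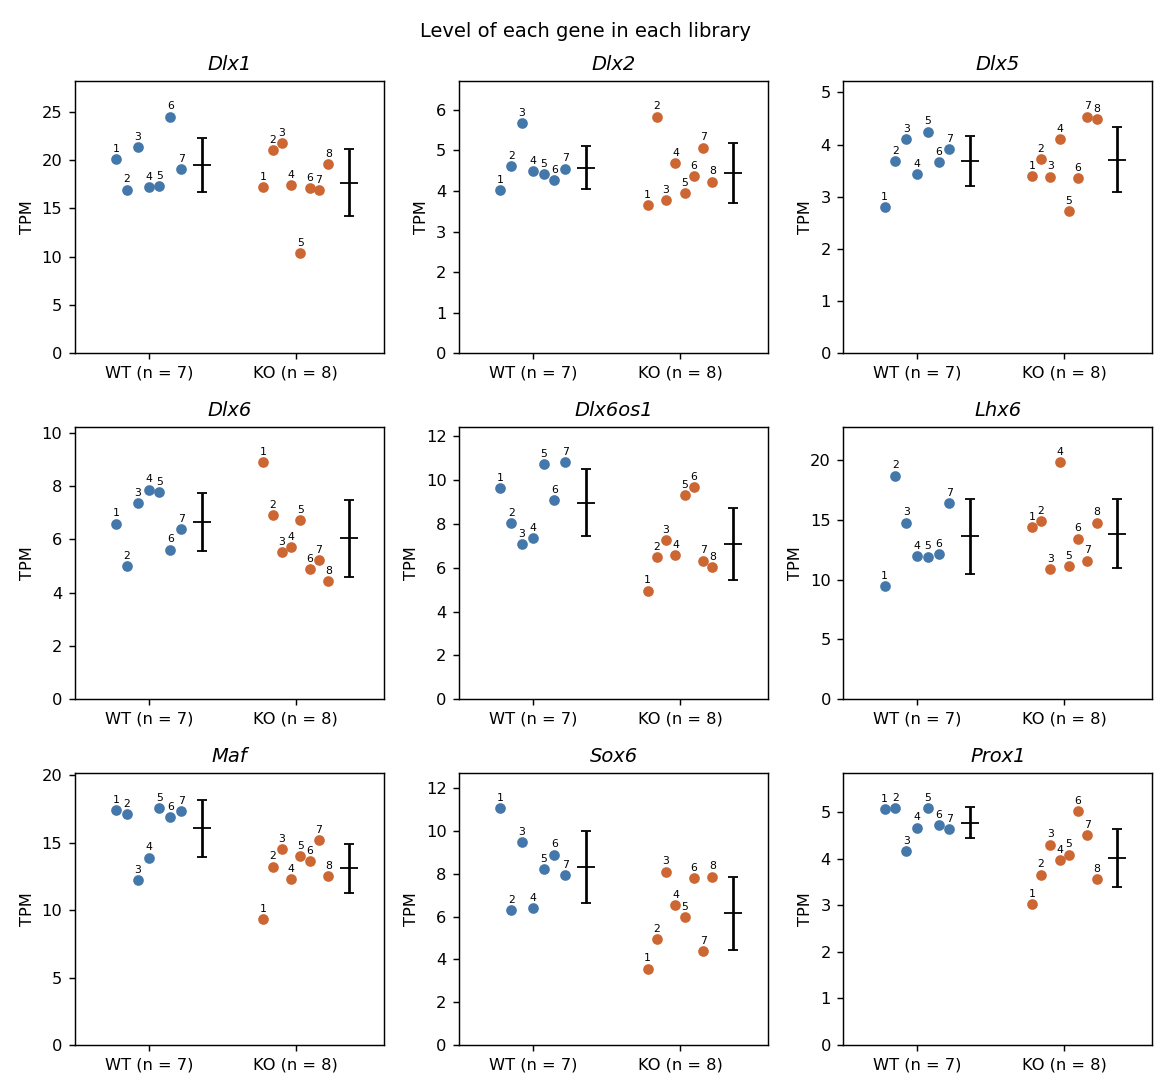
TPM of each of the 9 genes in each library (dots, numbered as in the sample titles; WT blue, KO orange), with the group mean and SD as bars at the right of each group. KO 1 had the lowest value of Dlx2, Dlx6os1, Maf, Sox6 and Prox1 and the highest of Dlx6.

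Of the Dlx homeobox genes, which open the GABAergic programme, Dlx2 and Dlx5 differed least. Dlx2 ranged from 4.01 to 5.67 TPM with a median of 4.49 in WT and from 3.66 to 5.84 TPM with a median of 4.30 in KO. The KO range of Dlx2 enclosed the WT range, and the log2 fold change was -0.04 (95% interval -0.23 to 0.15; limma adjusted p = 0.86), with a sign that turned without WT 3 or without KO 1 and KO 8. Dlx5 ranged from 2.81 to 4.25 TPM with a median of 3.68 in WT and from 2.73 to 4.54 TPM with a median of 3.55 in KO. Here too the KO range enclosed the WT range, with a log2 fold change of 0.00 (-0.20 to 0.21; limma adjusted p = 0.994) whose sign turned negative with median-of-ratios scaling. The intervals of both genes thus reach differences of about 0.2 on the log2 scale in either direction.

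Dlx1, the most abundant of the family, had a lower KO mean that rests largely on a single library. It ranged from 16.9 to 24.5 TPM with a median of 19.1 in WT and from 10.4 to 21.8 TPM with a median of 17.3 in KO. KO 5, at 10.4 TPM, lay well below the next KO library at 16.9 TPM. The log2 fold change was -0.15 (-0.42 to 0.12; limma adjusted p = 0.613), -0.10 without WT 6 and -0.05 without KO 5. Dlx6 ranged from 5.01 to 7.87 TPM with a median of 6.60 in WT and from 4.42 to 8.89 TPM with a median of 5.62 in KO. KO 1 held the highest and KO 8 the lowest value of Dlx6, and the log2 fold change was -0.13 (-0.40 to 0.13; limma adjusted p = 0.645). It was -0.21 without KO 1, -0.08 without KO 8 and -0.16 without both.

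Both long antisense transcripts of the Dlx pairs had KO means further below WT than those of their sense partners, though none passed the test. Dlx6os1, also known as Evf, is a noncoding RNA that regulates the Dlx5 and Dlx6 locus in the mouse forebrain. It ranged from 7.07 to 10.8 TPM with a median of 9.09 in WT and from 4.96 to 9.69 TPM with a median of 6.53 in KO. Of the 8 KO libraries 5 lay below the lowest WT library, while KO 5 and KO 6 lay above the WT mean. The log2 fold change was -0.31 ± 0.13 (SE; limma adjusted p = 0.386), and -0.21 without KO 1 and KO 8. A further row of the same symbol, a miscellaneous RNA of 146 bases (ENSMUSG00000098326), was at 0 in 8 libraries and at most 1.19 TPM, and was kept apart. Dlx1as, looked at after its values were seen, ranged from 4.45 to 9.19 TPM in WT and from 4.06 to 7.98 TPM in KO. Its log2 fold change was -0.41 ± 0.14 (SE; limma adjusted p = 0.338). Dlx6os2, inside Dlx6, reached at most 0.455 TPM and was not tested. The difference between sense and antisense changes was not tested.

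Of the medial eminence genes, Lhx6 had nearly equal means while Sox6 and Maf had lower means. Lhx6, needed for the migration and maturation of parvalbumin and somatostatin interneurons, ranged from 9.47 to 18.7 TPM with a median of 12.1 in WT. In KO it ranged from 10.9 to 19.8 TPM with a median of 13.9. The ranges nearly coincided, and the log2 fold change was 0.03 (-0.27 to 0.32; limma adjusted p = 0.942), with a sign that turned without WT 1, without KO 4 or without KO 1 and KO 8.

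Sox6, an HMG-box factor that acts after Lhx6 in these cells, had the most negative fold change of the 9 genes. It ranged from 6.31 to 11.1 TPM with a median of 8.22 in WT and from 3.57 to 8.11 TPM with a median of 6.25 in KO. Each KO library was under the WT mean and 4 were under the lowest WT library, with KO 1 at the bottom. The log2 fold change was -0.40 ± 0.16 (SE; limma adjusted p = 0.376), and -0.36 without KO 1 and KO 8. Sox6 is also a gene of oligodendrocyte precursors, whose 12 markers summed to 158 to 214 TPM in WT and 150 to 200 TPM in KO. Of the 12 markers 9 were lower in KO, against 45.3% of all tested genes, and none was at 0 throughout. The deviations of Sox6 from its group means followed the precursor score with r = 0.40 over the 15 libraries (permutation p = 0.136, adjusted 0.403) and rho = 0.33 (permutation p = 0.232, adjusted 0.487). Their r was 0.36 without WT 4 and WT 6, and the part of these cells in the Sox6 values was not tested.

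Maf, a basic leucine zipper factor that shapes the balance of medial eminence interneuron types, was the 1 gene of the 9 besides Sox6 whose 8 KO libraries were all under the WT mean. Among all tested genes 4.53% met that condition. Maf ranged from 12.2 to 17.6 TPM with a median of 17.1 in WT and from 9.33 to 15.2 TPM with a median of 13.4 in KO. Of the 7 WT libraries 5 lay above the highest KO library, while WT 3 and WT 4 lay among the KO values. The log2 fold change was -0.28 ± 0.10 (SE; limma adjusted p = 0.343), and -0.20 without KO 1 and KO 8.

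Prox1, the homeobox gene of caudal eminence interneurons, was the steadiest of the 9 in WT. It ranged from 4.16 to 5.08 TPM with a median of 4.72 in WT and from 3.02 to 5.03 TPM with a median of 4.02 in KO. Of the 8 KO libraries 5 lay below the lowest WT library, and KO 6 lay above the WT mean. The coefficient of variation was 7.09% in WT and 15.4% in KO. The log2 fold change was -0.21 ± 0.08 (SE; limma adjusted p = 0.378). Without KO 1 and KO 8 it was -0.14. It was -0.12 once trends on transcript length and GC content were removed within each library (an alternative added after the data were seen). The same removal gave -0.30 for Sox6, -0.20 for Maf and -0.28 for Dlx6os1. The antisense Prox1os overlaps the start of Prox1 by 419 bases and averaged 1.12 TPM over WT libraries against 1.13 TPM over KO libraries.

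**Figure D3:**
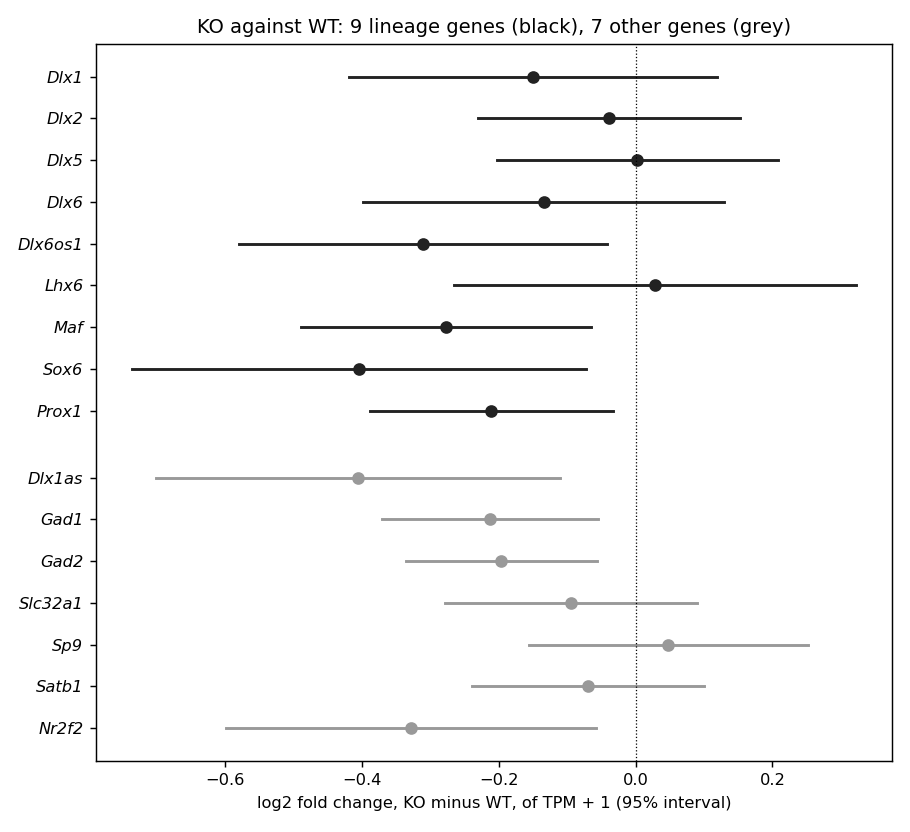
Log2 fold change of TPM + 1, KO minus WT, with its 95% interval (limma) for the 9 lineage genes (black) and for 7 other genes (grey). Sox6, Dlx6os1, Maf and Prox1 have intervals below 0 before adjustment, from -0.40 to -0.21 at their centres, and Dlx5 and Lhx6 sit at 0.00 and 0.03.

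Relative to the GABA enzymes, 5 of the 9 genes had a higher and 4 a lower mean in KO. The sum of Gad1 and Gad2 was lower in KO, at 201 ± 18.1 TPM, than the WT sum of 232 TPM. Dividing by a shared sum keeps the order of the genes and shifts them together. The mean log2 ratio of Lhx6 to this sum was -4.12 ± 0.286 (SD) over WT libraries against -3.88 ± 0.343 over KO libraries, a difference of 0.24. Dlx5 had a ratio difference of 0.21, Dlx2 of 0.16, and Dlx1 and Dlx6 of 0.05 each. For Dlx5, 7 of the 8 KO libraries were above the WT mean ratio. The difference was -0.05 for Prox1, -0.09 for Maf, -0.14 for Dlx6os1 and -0.26 for Sox6. For Prox1, 4 KO libraries were above and 4 below the WT mean ratio. Without KO 1 and KO 8, 6 of the 9 were higher and 3 lower. The difference was then 0.03 for Prox1, -0.01 for Maf, -0.04 for Dlx6os1, 0.01 each for Dlx1 and Dlx6, and -0.22 for Sox6. Dlx1 turned negative without WT 2 or KO 3, and Dlx6 without WT 2 or KO 1. All the differences over the 15 libraries were smaller than the SD between KO libraries, and no test was run on them.

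The other transcription factors of the lineage also failed to pass. Of 18 further factors 13 were tested, and 0 were called in either direction, where 0.0268% of all tested genes were called. Log2 fold changes were negative for 9, against 45.3% of all tested genes, and positive for 4, and the median was -0.06. Sp9, a zinc finger factor of interneuron precursors, averaged 1.21 ± 0.237 TPM (SD) over WT libraries against 1.28 ± 0.263 TPM over KO libraries. Satb1, which acts in the maturation of somatostatin interneurons, averaged 47.8 ± 4.52 TPM over WT libraries against 45.6 ± 5.05 TPM over KO libraries. The lowest p of the list belonged to Nr2f2, a nuclear receptor of the caudal eminence, which ranged from 7.20 to 12.7 TPM in WT and from 5.57 to 10.3 TPM in KO. Its log2 fold change was -0.33 ± 0.13 (SE; limma adjusted p = 0.377). Bcl11b, a zinc finger factor of deep-layer and striatal neurons as well, had 0.40 ± 0.18 (SE; limma adjusted p = 0.41). Gsx2, a factor of precursor cells, and Dlx4 were listed at 0 in all 15 libraries. Nkx2-1, which acts before Lhx6 in the medial eminence, averaged 0.0207 TPM over WT libraries and 0.0402 TPM over KO libraries.

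Genes of mature interneurons leaned lower without passing. Of 21 tested GABA and interneuron class genes 0 were called, 14 had negative and 7 positive log2 fold changes, and the median was -0.14. At an unadjusted p under 0.05 (limma), 6 of the 21 were lower, where 6.21% of tested genes were. In the other direction 0 were higher, where 5.68% were. Gad2 had -0.20 ± 0.07 (SE; limma adjusted p = 0.332) and Gad1 -0.21 ± 0.07 (adjusted p = 0.339). The vesicular GABA transporter gene Slc32a1 had -0.09 ± 0.09, and -0.16 without KO 1 and KO 8. Sst and Pvalb, both products of the Lhx6 lineage, had 0.11 ± 0.12 and -0.44 ± 0.26 (SE), and Vip, from the Prox1 lineage, had -0.17 ± 0.14. Without KO 1 and KO 8, Sst was at -0.03 and Vip at -0.05, while Pvalb was further from WT at -0.60. Of 14 tested migration and synapse genes of interneurons 0 were called and 8 were negative, beside the same 0.0268% and 45.3% over all tested genes. Their median was -0.03. The lowest p of that list belonged to Igsf11, an adhesion gene, at -0.15, and to Erbb4, the neuregulin receptor gene, at -0.24 (limma adjusted p = 0.496 and 0.523). Erbb4 was at -0.15 without KO 1, at -0.35 without KO 5 and at -0.12 once length and GC trends were removed.

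Among themselves the 9 genes did not vary as a unit. Deviations from the group means of log2(TPM + 1) were correlated over the 15 libraries for all 36 pairs, which share the TPM scaling of each library, and r was positive for 13 pairs and negative for 23. By Pearson's r, 3 pairs passed adjustment over the 36, and by Spearman's rho 0 passed. The 3 pairs joined Maf, Prox1 and Dlx6os1. Maf and Prox1 had r = 0.78 (permutation p = 0.00033, adjusted 0.0119) and rho = 0.73 (permutation p = 0.00319, adjusted 0.115). Their r was 0.84 within WT, 0.81 within KO, 0.49 without KO 1 and WT 3, the 2 libraries farthest from the median of Maf, and 0.60 without KO 1 and KO 8. Dlx6os1 and Prox1 had r = 0.70 (permutation p = 0.00293, adjusted 0.0437) and rho = 0.58 (permutation p = 0.0264, adjusted 0.19). Their r was 0.53 within WT, 0.78 within KO, 0.63 without KO 5 and KO 6 and 0.52 without KO 1 and KO 8. Dlx6os1 and Maf had r = 0.69 (permutation p = 0.00364, adjusted 0.0437) and rho = 0.61 (permutation p = 0.0177, adjusted 0.19). Their r was 0.83 within WT, 0.61 within KO, 0.78 without KO 5 and KO 6 and 0.54 without KO 1 and KO 8. Without KO 1 and KO 8 none of the 36 pairs passed adjustment.

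**Figure D4:**
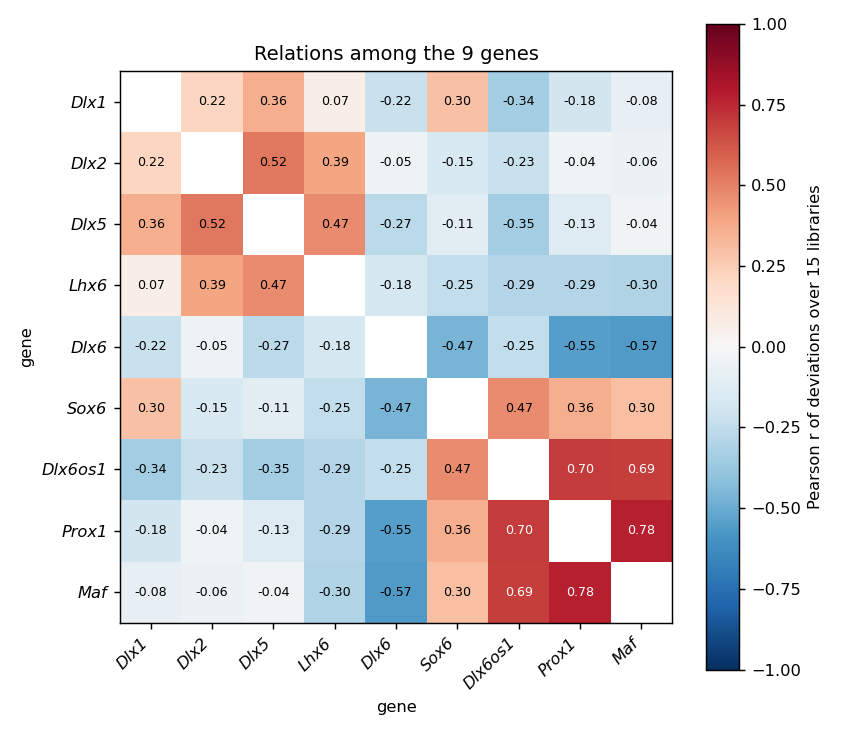
Pearson r of the deviations from group means for every pair of the 9 genes over the 15 libraries, on a colour scale from -1 (blue) to 1 (red). Dlx6os1, Prox1 and Maf form the red block at the lower right with r from 0.69 to 0.78, and the genomic neighbours Dlx1 and Dlx2 reach 0.22.

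Genomic neighbours were not the closest partners. Dlx1 and Dlx2 had r = 0.22 and rho = -0.08 (permutation p = 0.429 and 0.771), and Dlx5 and Dlx6 had r = -0.27 and rho = -0.19 (permutation p = 0.325 and 0.508). Dlx6 and the Dlx6os1 transcript that covers it had r = -0.25 and rho = -0.16 (permutation p = 0.37 and 0.569). The Dlx2 and Dlx5 pair, from different chromosomes, had r = 0.52 and rho = 0.59 (permutation p = 0.0448 and 0.0224, adjusted 0.269 and 0.19). Lhx6 and Sox6, which act in sequence in the medial eminence, had r = -0.25 and rho = -0.25 (permutation p = 0.37 and 0.361). None of these 5 pairs passed adjustment. Without the 2 libraries farthest from the median of the first-named gene, r was 0.17, -0.26, -0.09, 0.67 and -0.24 in the order given.

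Maf, Prox1 and Dlx6os1 also followed markers of other cells. Each of the 9 genes was set against the scores of 7 cell types, 63 relations in all, and 6 passed adjustment by r, all between these 3 genes and the microglia and macrophage or astrocyte scores. By rho 4 passed, the 3 with microglia and macrophages and that of Maf with endothelial markers (rho = 0.73, permutation adjusted p = 0.0488). Maf and the microglia and macrophage score had r = 0.89 (permutation p = 3e-05, adjusted 0.00189) and rho = 0.93 (permutation p = 1e-05, the smallest that 100000 resamples can give, adjusted 0.00063). Their r was 0.83 within WT, 0.96 within KO, 0.82 without KO 1 and WT 4 and 0.82 without KO 1 and KO 8. Prox1 and the same score had r = 0.74 (permutation p = 0.00166, adjusted 0.0349) and rho = 0.83 (permutation p = 0.00031, adjusted 0.00976). Their r was 0.69 without KO 1 and WT 4 and 0.53 without KO 1 and KO 8. Dlx6os1 had r = 0.70 with it (permutation p = 0.00377, adjusted 0.0396), rho = 0.74 (permutation p = 0.00248, adjusted 0.0488), and r = 0.53 without KO 1 and WT 4 and 0.54 without KO 1 and KO 8. With the astrocyte score Maf, Dlx6os1 and Prox1 had r = 0.81, 0.71 and 0.68 (permutation adjusted p = 0.0129, 0.0396 and 0.0396). In the same order rho was 0.69, 0.69 and 0.67 (permutation adjusted p = 0.0566, 0.0566 and 0.0745). Without KO 4 and WT 4 these r were 0.86, 0.74 and 0.86, and without KO 1 and KO 8 they were 0.81, 0.67 and 0.67. With the oligodendrocyte score Maf, Dlx6os1 and Prox1 had r = -0.39, -0.54 and -0.63 (permutation adjusted p = 0.403, 0.22 and 0.128). Those values were 0.38, -0.34 and -0.13 without KO 1 and KO 8.

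The microglia and macrophage, astrocyte and endothelial marker lists leaned lower in KO as well. Among their markers 0 were called, where 0.0268% of all tested genes were, and 45.3% of all tested genes had a negative log2 fold change. Microglia and macrophage markers summed to 321 to 434 TPM in WT and 345 to 407 TPM in KO, with 10 of 12 lower in log2 fold change. Astrocyte markers summed to 1816 to 2424 TPM in WT and 1543 to 2068 TPM in KO, with 10 of 12 lower. Endothelial markers summed to 200 to 308 TPM in WT and 147 to 251 TPM in KO, with 11 of 12 lower. None of the 36 markers was at 0 in all libraries, and their part in the low KO means of Maf, Prox1 and Dlx6os1 was not tested. With the microglia and macrophage score Lhx6 had r = -0.32 and rho = -0.55 (permutation adjusted p = 0.527 and 0.277), and r was -0.57 without KO 1 and WT 4. Striatal markers summed to 207 to 292 TPM in WT and 206 to 292 TPM in KO, and none of the 9 genes had a relation with their score at an adjusted p under 0.05 (r from -0.34 to 0.29).

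**Figure D5:**
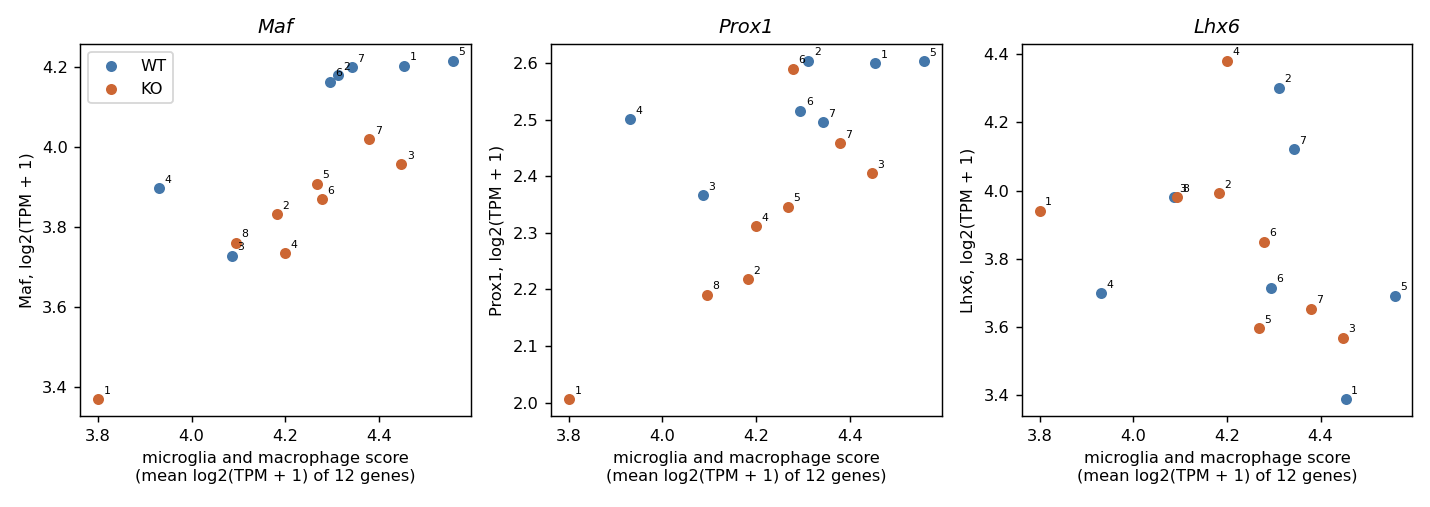
Log2(TPM + 1) of Maf, Prox1 and Lhx6 (vertical axes) against the microglia and macrophage score, the mean log2(TPM + 1) of 12 marker genes (horizontal axes), per library, WT blue and KO orange. Maf and Prox1 climb with the score in both groups (r of deviations 0.89 and 0.74), with KO 1 lowest on all but the Lhx6 axis, and Lhx6 does not (r = -0.32).

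The genes whose deviations from the group means were most like those of the lineage factors were of mixed kinds. For Maf they were Man1a2, a mannosidase gene, at r = 0.90, Abcb1a, the efflux transporter gene of brain endothelium, at 0.89 and B4galt1, a galactosyltransferase gene, at 0.89. For Prox1 they were Sft2d2 at r = 0.90, Pon3, a paraoxonase gene, at 0.89 and Notch2, a receptor gene, at 0.89. For Lhx6 they were Cyth1 at r = 0.82, Tet2, a DNA demethylase gene, at 0.78 and Stk38l, a kinase gene, at 0.77. For Dlx1 they were Wdtc1 at r = 0.80, Dact3 at 0.80 and Gm49278 at 0.79, and for Sox6 Gm26724 at 0.81, Ankrd61 at 0.80 and Gm38228 at 0.80. Each was the top of 18670 genes ranked over 15 libraries, so the names are a description and carry no test. Within that ranking Prox1 was 98th for Maf and Maf was 62nd for Prox1.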

How the data were processed

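The deposited table gives TPM values per Ensembl gene ID, made by the authors with Trimmomatic, HISAT2 and StringTie on mm10, per the submitters' processing notes; tool versions, strand setting and annotation are unstated there. Each library sums to 999789 to 999899 TPM, so TPM falls for all genes when abundant transcripts rise. The table has 1 further column of unknown content, which was not used. GENCODE M21 named 54723 of 54838 rows, and rows were kept by ID.

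A gene was tested when its mean reached 1 TPM, on log2(TPM + 1), a scale that understates changes of low genes, with limma 3.58.1 (R 4.3.3, intensity trend, two-sided) and Benjamini-Hochberg adjustment over all of them at 0.05. The test was tried on simulated data. Correlations used two-sided permutation tests of 100000 resamples (NumPy 2.4.6).

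The 9 genes, the lists and the tests were chosen with earlier results of these data known. Beside the 9, genes were named as 12 fixed names, the 2 of lowest p per interneuron list when none passed, and the 3 most like Dlx1, Lhx6, Sox6, Maf and Prox1. Some genes that this rule names are not reported here. Dlx1as, Dlx6os2 and Prox1os were named after their values were seen. Alternatives were another pseudocount, 2 filters, 2 scalings, a replicate block, each library left out, KO 1 and KO 8 left out and, added after seeing the data, removal of length and GC trends and summing of rows that share a symbol.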

Additional observations from a re-analysis of the deposited data

Results flagged for a closer look

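In 3 of the 18 sets of values formed by gene and group, the highest or lowest library lay far from the rest by Dixon's ratio; about 1 set in 20 does so by chance. Dlx1 was at 10.4 TPM in KO 5, below the other 7 KO libraries. Dlx2 was at 5.67 TPM in WT 3, above the other 6 WT libraries. Lhx6 was at 19.8 TPM in KO 4, above the other 7 KO libraries.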

How the results depend on the processing

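No lineage gene passed adjustment under any alternative run; the lowest limma adjusted p of the 9 was 0.343 as reported and 0.237 to 0.607 when each library was left out. Sox6, Maf, Prox1, Dlx6os1, Dlx1 and Dlx6 stayed negative throughout. Dlx2 was at 0.00400 without KO 1 and KO 8 and at -0.0878 to 0.00426 when each library was left out. Dlx5 was at -0.0109 with median-of-ratios scaling, -0.0308 with the replicate block, -0.0211 without KO 1 and KO 8, -0.0503 without length and GC trends and -0.0469 to 0.0489 when each library was left out. Lhx6 was at -0.00206 without KO 1 and KO 8 and at -0.0476 to 0.104 when each library was left out. Sst was at -0.0339 and Sp9 at -0.0293 without KO 1 and KO 8, and Satb1 at 0.00452 without length and GC trends. Prox1os was at 0.0417 with the replicate block and -0.114 to 0.0417 when each library was left out. Without KO 1 and KO 8 the pairs of lineage genes that passed numbered 0 in place of 3, and r of Maf and Sox6 was -0.0441. The cause of these shifts was not tested. Over all genes, 5 were called as reported and 8 with the replicate block. WT and KO share only numbers: the correlation of same-numbered libraries ran from -0.0398 to 0.123. At a mean of 5 TPM only 6 of the 9 were tested. Depth is unknown.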
